A study of Mus musculus with 4 samples.

Results

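The 10 genes described here encode the contractile apparatus of smooth muscle and its main transcriptional coactivator: *Acta2*, *Actg2*, *Myh11*, *Tagln*, *Tagln2*, *Cnn1*, *Cnn2*, *Smtn*, *Lmod1* and *Myocd*. They were chosen by gene symbol from the 46983 genes of each table, and all 10 passed the filter on low values. The RNA came from the larynx of mouse embryos at E10.5 (32 to 35 somites). There were 2 pools of Shh-/- embryos (Shh1 and Shh2) and 2 pools of wild-type (WT) Swiss Webster embryos (WT4 and WT6), each of 3 larynxes. Shh-/- embryos carry the null allele Shhtm1amc, kept on a Swiss Webster background, and so lack this Hedgehog (HH) ligand throughout the body. The sample labels write the genotype as Shh+/-, whereas the series description and the study's methods give Shh-/-, which is used here. Pooling hides the variation between single embryos.

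Smooth muscle contracts when myosin light chain is phosphorylated and smooth muscle myosin pulls on filaments of α- and γ-smooth muscle actin, which are decorated by tropomyosin, calponin, caldesmon and transgelin. Many of these genes are driven by serum response factor (SRF), which binds the CArG box, together with myocardin or the myocardin-related factors. *Acta2* and *Tagln* appear early and are also transcribed in the embryonic heart, whereas smooth muscle myosin heavy chain marks committed smooth muscle. In the foregut, HH ligand from the epithelium acts on the surrounding mesenchyme, from which visceral smooth muscle forms.

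In Shh-/- larynx *Tagln* RNA rose 1.85-fold. The fitted folds of *Acta2*, *Smtn*, *Cnn1*, *Lmod1* and *Cnn2* were 1.44 to 1.78 without passing the adjusted threshold. *Actg2*, *Tagln2* and *Myh11* overlapped between the genotypes, and *Myocd* was measured lower in both mutant pools. Levels are TPM values, the abundance of a gene's transcripts scaled for their length and for library size. Differences are Shh-/- minus WT on log2(TPM + 1), which understates the change of low genes, and were tested with limma over 16972 genes. A gene was called at a Benjamini-Hochberg adjusted p under 0.05. The call of *Tagln* lay close to that threshold and was lost in 11 of 16 alternative settings.

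*Ptch1*, a receptor and direct HH target, checked the genotypes and measured 12.9 TPM in Shh1, 13.8 in Shh2, 57.8 in WT4 and 55.1 in WT6 (log2 fold change −2.00, limma adjusted p = 0.0319). All 4 HH targets listed were lower in the mutant (median −2.30), 2 of them called. Of all tested genes 58.3% were higher, and 0.165% were called as lower. *Shh* itself measured 10.4 TPM in Shh1, 10.8 in Shh2, 23.7 in WT4 and 42.1 in WT6 (−1.49, limma adjusted p = 0.0895). Its RNA was thus still measured in both mutant pools. That level alone neither measures the ligand nor settles the conflict between the genotype labels. The libraries held 1.37 to 3.13 gigabases of aligned sequence, Shh1 the least. RNA integrity numbers were 8 for Shh1, 7.7 for Shh2, 7.7 for WT4 and 9 for WT6.

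All 10 genes are protein coding. In mm10 *Acta2* is at chr19:34241090-34255336 (minus strand), *Actg2* at chr6:83512905-83536265 (minus), *Myh11* at chr16:14194527-14291408 (minus) and *Myocd* at chr11:65176561-65269989 (minus). The calponin family members are *Tagln* at chr9:45929628-45936058 (minus), *Tagln2* at chr1:172500047-172507380 (plus), *Cnn1* at chr9:22099281-22109630 (plus) and *Cnn2* at chr10:79988584-79996062 (plus). *Lmod1* is at chr1:135324807-135368065 (plus) and *Smtn* at chr11:3517523-3540612 (minus). In GENCODE M21 the longest transcripts of 8 of the 10 genes, the actins included, shared no stretch of 75 bases with another gene. In *Tagln* 40.9% of such stretches also lie in the antisense gene *Gm48529* or in *Pcsk7*, both on the opposite strand, and in *Smtn* 9.54% lie in *Gm11946*. The library kit keeps strand, but whether the assembly used it is not given in the sources used here, so reads of *Tagln* and *Smtn* may not be told apart from those of these partners. *Pcsk7* measured 15.0 TPM in Shh1, 14.3 in Shh2, 9.87 in WT4 and 10.7 in WT6, and *Gm11946* 0.0895 to 0.336 TPM. *Gm48529*, which holds most of the shared stretches of *Tagln*, has no value under that symbol in these data.

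Promoter windows from RefSeq (GRCm38.p6, 250 bases before to 50 bases after the annotated start) matched 6 of the 10 genes, *Acta2*, *Cnn1*, *Cnn2*, *Lmod1*, *Smtn* and *Tagln2*. Those of *Tagln*, *Myh11*, *Actg2* and *Myocd* were not analysed here. *Acta2* and *Cnn2* are shown because theirs were the windows with a CArG match, and *Tagln2* as a family member whose levels overlapped between genotypes. Capitals mark the match to the CArG box, exact in *Cnn2* and with 1 G or C among the inner bases in *Acta2*. The windows are chr19:34255324-34255623 (minus strand), chr10:79988350-79988649 (plus) and chr1:172499996-172500295 (plus), printed 5′ to 3′.
Acta2: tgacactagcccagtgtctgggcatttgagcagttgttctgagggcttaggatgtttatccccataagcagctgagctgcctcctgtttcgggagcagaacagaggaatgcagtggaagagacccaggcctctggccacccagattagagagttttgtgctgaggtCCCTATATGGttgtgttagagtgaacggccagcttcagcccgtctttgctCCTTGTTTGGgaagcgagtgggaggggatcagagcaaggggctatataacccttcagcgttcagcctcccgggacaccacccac
Cnn2: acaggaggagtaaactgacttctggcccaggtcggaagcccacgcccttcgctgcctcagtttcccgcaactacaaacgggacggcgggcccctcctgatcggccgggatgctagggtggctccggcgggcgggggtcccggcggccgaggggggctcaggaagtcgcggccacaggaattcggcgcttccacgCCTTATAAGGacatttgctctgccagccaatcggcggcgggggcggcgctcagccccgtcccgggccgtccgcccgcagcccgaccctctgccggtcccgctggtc
Tagln2: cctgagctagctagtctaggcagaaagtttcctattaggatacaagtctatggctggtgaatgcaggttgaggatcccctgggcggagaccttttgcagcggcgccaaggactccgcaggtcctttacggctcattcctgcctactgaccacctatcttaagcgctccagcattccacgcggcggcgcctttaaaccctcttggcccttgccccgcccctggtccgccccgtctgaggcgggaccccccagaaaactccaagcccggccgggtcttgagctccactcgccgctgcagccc

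An exact CArG box on either strand was in 1 of the 6 windows, as CCTTATAAGG from −56 to −47 of *Cnn2*, and in 1.63% of all 32851 windows. The form with 1 inner G or C was in *Acta2*, as CCCTATATGG (−84 to −75) and CCTTGTTTGG (−34 to −25), and in 8.50% of all windows. The letters GGAATG, a core bound by TEAD factors, were on either strand of *Acta2*, *Lmod1*, *Smtn* and *Tagln2*, against 14.7% of all windows. GGGCGG was in *Cnn2*, *Lmod1*, *Smtn* and *Tagln2*, against 35.7%. TATAAA was in none of the 6 and in 13.6% of all, and the GLI core GACCACCCA in none of the 6 and in 0.253%. No match overlapped a CArG match, and a match is one of letters only.

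Mean levels over the 4 pools ran from 174 TPM for *Cnn2*, 169 for *Tagln* and 147 for *Acta2* down to 1.38 for *Myh11*. In WT these 3 leading genes kept that order without overlap. In the mutant *Tagln* was first in both pools, its range overlapped that of *Cnn2*, and *Cnn2* overlapped *Acta2*. *Tagln2* and *Smtn* followed. *Actg2* and *Cnn1* overlapped in the mutant, *Myocd* and *Myh11* in both genotypes, and *Lmod1* overlapped both of these in WT. The 10 genes summed to 754 TPM in Shh1, 716 in Shh2, 487 in WT4 and 460.4 in WT6.

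**Figure D1:**
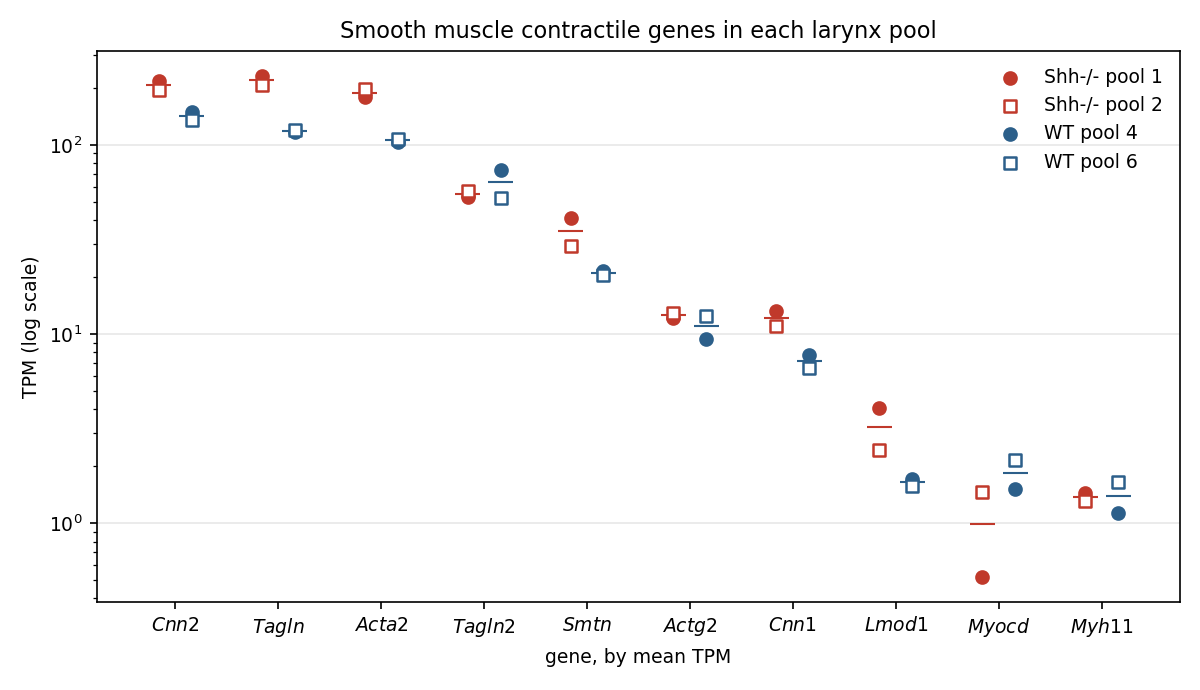
Level of each gene in TPM (log axis) in each of the 4 pools, with the mean of each genotype as a line. Both mutant pools of *Tagln*, *Acta2*, *Cnn2*, *Smtn*, *Cnn1* and *Lmod1* lie above both WT pools, and those of *Myocd* below them.

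*Acta2*, which encodes α-smooth muscle actin, measured 179 TPM in Shh1, 198 in Shh2, 104 in WT4 and 107 in WT6. The genotypes did not overlap, and the gap between them was wider than that within either. The mean was 189 ± 13.0 TPM in the mutant and 106 ± 2.46 TPM in WT (SD, n = 2 pools each), and the log2 fold change was 0.83 (standard error 0.10, limma adjusted p = 0.0559, 0.0481 to 0.208 over the alternatives). *Actg2*, the γ-smooth muscle actin of gut and airway, measured 12.2 TPM in Shh1, 12.9 in Shh2, 9.41 in WT4 and 12.5 in WT6. Its pools overlapped, and the log2 fold change was 0.19 (95% interval −0.28 to 0.66, limma adjusted p = 0.539). It ranged from 0.00164 without WT4 to 0.38 without WT6. The ratio of *Actg2* to *Acta2*, which does not depend on library scaling, was 0.0680 in Shh1, 0.0650 in Shh2, 0.0907 in WT4 and 0.117 in WT6. It was lower in both mutant pools. *Acta2* was itself higher in them, which lowers its ratio for any gene that did not rise as much. The ratios of *Cnn1*, *Smtn* and *Lmod1* to *Acta2* overlapped between genotypes. No ratio was tested, since an exact two-sided permutation test with these group sizes has a smallest p of 0.333.

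*Tagln*, which encodes the actin-binding protein transgelin (SM22α), measured 232 TPM in Shh1, 208 in Shh2, 116 in WT4 and 120.4 in WT6. The genotypes did not overlap. The mean was 219.7 ± 16.7 TPM in the mutant and 118 ± 2.81 TPM in WT (SD, n = 2 pools each), and the log2 fold change was 0.88 (standard error 0.10, limma adjusted p = 0.0493, 0.0424 to 0.195 over the alternatives). *Tagln* was the 1 gene called of the 10, while 0.725% of all tested genes were called, 0.56% as higher and 0.165% as lower. It was not called with any 1 pool left out, when its log2 fold change was 0.81 to 0.96. *Tagln2*, a paralog expressed widely outside muscle, measured 53.3 TPM in Shh1, 56.7 in Shh2, 73.9 in WT4 and 52.5 in WT6. Its WT pools differed more from each other than the genotypes did, with a log2 fold change of −0.18 (95% interval −0.66 to 0.30, limma adjusted p = 0.568) that was 0.066 without WT4 and −0.42 without WT6. The ratio of *Tagln* to *Tagln2* was 4.35 in Shh1, 3.66 in Shh2, 1.58 in WT4 and 2.29 in WT6, without overlap. That of *Tagln* to *Acta2* was 1.29 in Shh1, 1.05 in Shh2, 1.12 in WT4 and 1.12 in WT6 and did overlap.

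*Cnn1*, the calponin of differentiated smooth muscle, measured 13.2 TPM in Shh1, 11.0 in Shh2, 7.72 in WT4 and 6.62 in WT6. *Cnn2*, a calponin also found in non-muscle cells, measured 217 TPM in Shh1, 195 in Shh2, 149.9 in WT4 and 135 in WT6. For both, the mutant pools lay above the WT pools. The log2 fold change was 0.68 for *Cnn1* (standard error 0.18, limma adjusted p = 0.127) and 0.53 for *Cnn2* (standard error 0.11, limma adjusted p = 0.0991). After each library was corrected for GC content and length, *Cnn2* was at 0.29. The ratio of *Cnn1* to *Cnn2* was 0.0608 in Shh1, 0.0562 in Shh2, 0.0515 in WT4 and 0.0490 in WT6. *Cnn3*, the remaining calponin, measured 267 TPM in Shh1, 225 in Shh2, 233 in WT4 and 281 in WT6 and overlapped (−0.063, limma adjusted p = 0.805). It was the most abundant calponin in every pool.

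*Smtn*, which encodes smoothelin of contractile filaments, measured 41.2 TPM in Shh1, 29.2 in Shh2, 21.4 in WT4 and 20.4 in WT6. The genotypes did not overlap, but the mutant pools differed by 0.48 on the log2 scale. The log2 fold change was 0.70 (standard error 0.19, limma adjusted p = 0.134), 0.46 without Shh1 and 0.24 after the GC and length correction. *Lmod1*, leiomodin 1, which nucleates actin filaments, measured 4.05 TPM in Shh1, 2.43 in Shh2, 1.72 in WT4 and 1.57 in WT6. Its genotypes did not overlap, and its log2 fold change of 0.65 had a 95% interval of −0.022 to 1.33 (limma adjusted p = 0.210), with 0.38 without Shh1 and 0.35 after that correction. *Tagln*, *Acta2* and *Cnn1* kept 0.75, 0.73 and 0.51 under it.

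*Myh11*, the smooth muscle myosin heavy chain, measured 1.45 TPM in Shh1, 1.32 in Shh2, 1.13 in WT4 and 1.64 in WT6. The genotypes overlapped, and the log2 fold change was 0.0070 (95% interval −0.59 to 0.61, limma adjusted p = 0.986), with a sign that turned in 5 of 14 alternatives. The mean coverage of *Myh11* was 0.953 to 2.44 reads per base. The ratio of *Myh11* to *Acta2* was 0.00807 in Shh1, 0.00666 in Shh2, 0.0108 in WT4 and 0.0153 in WT6, lower in both mutant pools. That of *Myh11* to its paralog *Myh10* was 0.00768 in Shh1, 0.00711 in Shh2, 0.00712 in WT4 and 0.00990 in WT6 and overlapped.

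*Myocd*, which encodes myocardin, measured 0.521 TPM in Shh1, 1.46 in Shh2, 1.52 in WT4 and 2.16 in WT6. Both genotypes were near the lower limit of the filter, and Shh2 was only narrowly under WT4. The log2 fold change was −0.54 (95% interval −1.37 to 0.29, limma adjusted p = 0.342). It was −0.20 without Shh1, where *Myocd* was covered at 0.202 reads per base against 1.33 to 2.01 elsewhere, −0.89 without Shh2, and −0.96 with a pseudocount of 0.1. The ratio of *Myocd* to *Acta2* was 0.00290 in Shh1, 0.00740 in Shh2, 0.0146 in WT4 and 0.0201 in WT6.

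Of the 10 genes, 7 had genotypes that did not overlap, against 60.7% of all tested genes. In 6 the mutant was higher, against 38%, and in 1, *Myocd*, lower, against 22.7%. At an unadjusted p under 0.05 there were 5 (*Acta2*, *Tagln*, *Cnn1*, *Cnn2* and *Smtn*), against 24.8%. All 5 were higher, against 17.5%, and 0 lower, against 7.22%. The log2 fold change was above 0 in 8, against 58.3%. The median was 0.59, against 0.083 over all tested genes, and 0.27 against −0.013 with the GC and length correction. After that correction an unadjusted p under 0.05 was reached by 4 higher genes, *Smtn* no longer among them, and 1 lower (*Tagln2*). It was reached by 3236 of 16887 genes in that setting. Without Shh1 the median was 0.41 (0.069 over all tested genes) and without Shh2 0.68 (0.11). Without WT4 it was 0.65 (0.10) and without WT6 0.52 (0.060).

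**Figure D2:**
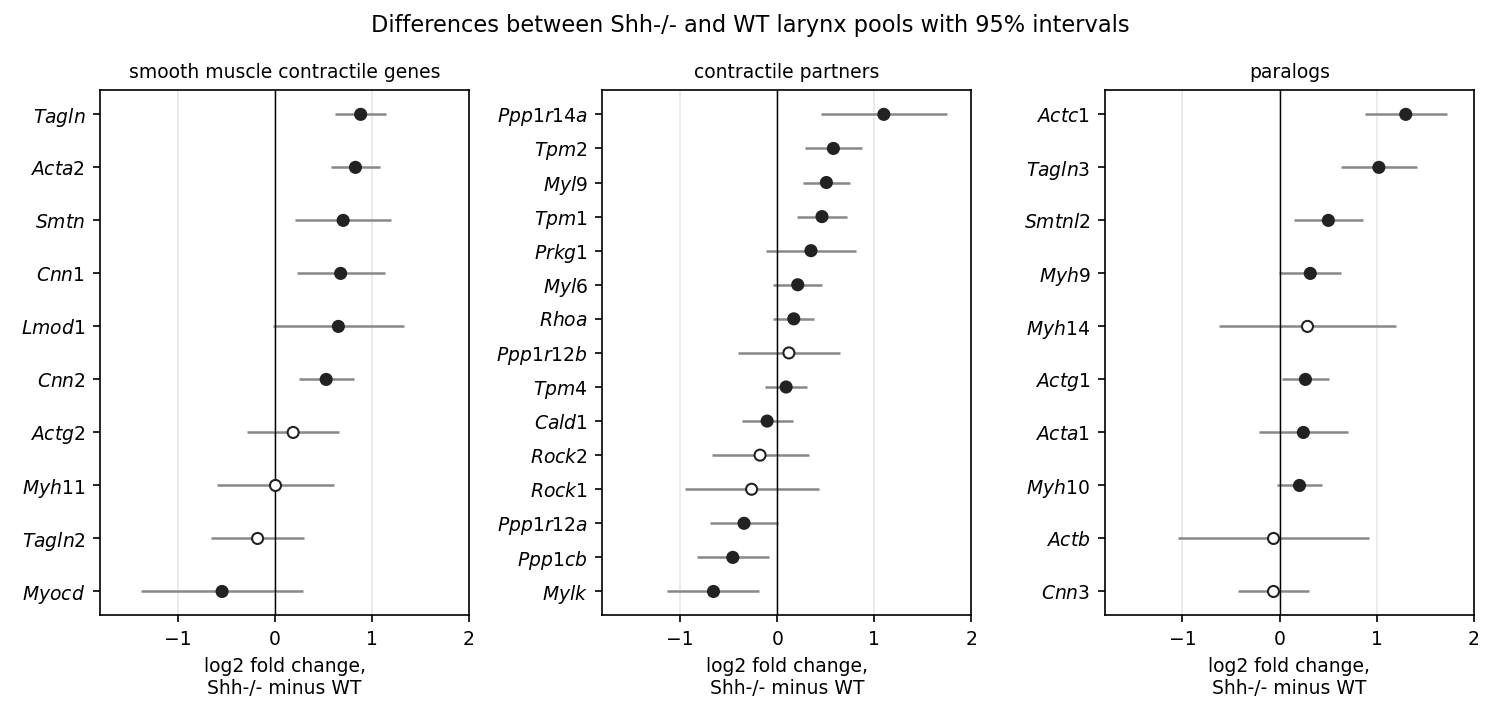
Log2 fold change (Shh-/- minus WT, on log2(TPM + 1)) with 95% intervals from limma for the 10 genes, their contractile partners and their paralogs, with filled points where the pools did not overlap. Among the 10 genes *Tagln* (0.88) and *Acta2* (0.83) have the highest values and *Myocd* (−0.54) the lowest.

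Of 15 contractile partners (light chains, tropomyosins, caldesmon and the enzymes that act on light chain), 9 were higher and 6 lower in the mutant (median 0.12). None was called by limma, while an unadjusted p under 0.05 was reached by 4 higher and 2 lower genes. Among all tested genes 58.3% were higher, and this p was reached by 17.5% as higher and 7.22% as lower. *Ppp1r14a*, which encodes the myosin phosphatase inhibitor CPI-17, measured 44.5 TPM in Shh1, 48.1 in Shh2, 27.1 in WT4 and 16.3 in WT6 (1.10, limma adjusted p = 0.110). *Mylk*, myosin light chain kinase, measured 4.10 TPM in Shh1, 3.75 in Shh2, 6.15 in WT4 and 7.40 in WT6 (−0.66, limma adjusted p = 0.138). These had the largest differences, in opposite directions. *Tpm2*, β-tropomyosin, measured 41.6 TPM in Shh1, 38.9 in Shh2, 26.0 in WT4 and 27.3 in WT6 (0.58, limma adjusted p = 0.0957), and *Myl9*, the regulatory light chain, 145 TPM in Shh1, 136 in Shh2, 99.3 in WT4 and 98.0 in WT6 (0.51, limma adjusted p = 0.0887). None of these 4 genes overlapped between genotypes, and neither did 60.7% of all tested genes.

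Of 17 cytoskeletal and late smooth muscle genes, 15 were tested, 9 higher and 6 lower (median 0.11). None was called by limma, while an unadjusted p under 0.05 was reached by 3 higher and 1 lower genes. These counts are near the shares of all tested genes, 17.5% and 7.22%, of which 58.3% were higher. Among the largest differences were those of *Pdlim7* (0.89), *Itga8* (−0.73) and *Hspb6* (0.52), with limma adjusted p = 0.253, 0.0957 and 0.183. The late markers *Kcnmb1* and *Aoc3* reached at most 0.446 and 0.388 TPM and were not tested. Like *Myh11*, these 2 late markers were low in both genotypes. The 17 genes together summed to 976 TPM in Shh1, 998 in Shh2, 806 in WT4 and 781 in WT6, so other genes of the list were not low.

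Of 13 paralogs, 10 were tested, 8 higher (58.3% over all tested genes) and 2 lower (median 0.28). None was called by limma. An unadjusted p under 0.05 was reached by 4 higher and 0 lower genes, against 17.5% and 7.22% of all tested genes. *Actc1*, cardiac α-actin, measured 83.6 TPM in Shh1, 99.9 in Shh2, 32.6 in WT4 and 41.0 in WT6 (1.3, limma adjusted p = 0.0592). *Tagln3*, a neuronal transgelin, measured 44.2 TPM in Shh1, 54.0 in Shh2, 25.1 in WT4 and 22.0 in WT6 (1.02, limma adjusted p = 0.0688). Neither overlapped between genotypes, as was so for 60.7% of all tested genes. The log2 fold changes of *Smtnl2*, *Myh9*, *Myh14*, *Actg1*, *Acta1* and *Myh10* were 0.50, 0.32, 0.29, 0.27, 0.25 and 0.21, and *Lmod2*, *Lmod3* and *Smtnl1* were too low to be tested. *Actb*, cytoplasmic β-actin, measured 5707 TPM in Shh1, 3264 in Shh2, 3363 in WT4 and 6039 in WT6 (−0.062, limma adjusted p = 0.931). *Actb* was higher in the pools with integrity numbers of 8 and 9, and within a genotype *Tagln* was also higher in that pool while *Acta2* was so in WT alone. The part of RNA quality in the differences was not tested.

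All 18 regulators of smooth muscle genes were tested, 14 higher (58.3% over all tested genes) and 4 lower (median 0.38). None was called by limma. An unadjusted p under 0.05 was reached by 6 higher and 1 lower genes, against 17.5% and 7.22% of all tested genes. *Hey2* (0.82), *Hand2* (0.81), *Heyl* (0.81) and *Tcf21* (−0.78) had the largest differences, with limma adjusted p = 0.0849, 0.131, 0.0895 and 0.195. *Srf* and the myocardin-related factor genes *Mkl1* and *Mkl2* were singled out after their values were seen. *Srf* measured 35.5 TPM in Shh1, 35.3 in Shh2, 33.9 in WT4 and 24.0 in WT6 (0.30, limma adjusted p = 0.363), and *Mkl1* 22.5 TPM in Shh1, 18.1 in Shh2, 14.7 in WT4 and 13.2 in WT6 (0.50, limma adjusted p = 0.161). Both were above *Myocd* in every pool.

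Markers of other cells that transcribe some of the 10 genes were compared in the same way. In whole tissue a change in the number of cells of a type cannot be told apart from a change in RNA per cell. Of 11 mural cell markers 10 were tested, 8 higher and 2 lower (median 0.50), none called by limma. Over all tested genes 58.3% were higher and 0.725% were called. An unadjusted p under 0.05 was reached by 4 higher and 1 lower genes, against 17.5% and 7.22% of all tested genes. The 11 markers summed to 239 TPM in Shh1, 206 in Shh2, 175 in WT4 and 160.1 in WT6, with *Higd1b* at 0 throughout. *Abcc9* (1.18, at most 2.06 TPM), *Mcam* (0.67), *Anpep* (0.66) and *Ndufa4l2* (0.66) differed most. The pools of *Anpep* overlapped between genotypes (limma adjusted p = 0.359), and those of the others did not. Of all tested genes 60.7% did not overlap. All 7 endothelial markers were higher (median 0.80), and *Tie1* rose (1.17, limma adjusted p = 0.0470). Their sum was 332 TPM in Shh1, 385 in Shh2, 213 in WT4 and 199 in WT6. The part of mural and endothelial cells in the difference of *Acta2* or *Tagln* was not tested.

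Of 15 cardiac markers 10 were tested, 9 higher and 1 lower (median 1.81), while 58.3% of all tested genes were higher and 0.725% called. *Myh7* (2.13, limma adjusted p = 0.0422) and *Myh6* (1.76, limma adjusted p = 0.0448), the cardiac myosin heavy chains, rose. The 1 lower marker was the cardiac transcription factor *Nkx2-5*, named after its values were seen, which measured 5.97 TPM in Shh1, 4.73 in Shh2, 18.5 in WT4 and 13.6 in WT6 (−1.42, limma adjusted p = 0.0697). The list summed to 127 TPM in Shh1, 222 in Shh2, 66.8 in WT4 and 62.6 in WT6, with *Nppa* at 0 throughout and *Myl2* at 0 in all but Shh2. Of 7 skeletal muscle markers 3 were tested, all higher and none called by limma, with 1, *Myf5* (1.11), at an unadjusted p under 0.05. That p was reached by 17.5% of all tested genes as higher. The skeletal muscle markers summed to 8.34 TPM in Shh1, 5.87 in Shh2, 3.26 in WT4 and 4.05 in WT6. The part of heart or skeletal muscle RNA in the levels of the 10 genes was not tested.

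Of 7 foregut mesenchyme markers 6 were lower and 1 higher (median −1.58), while 58.3% of all tested genes were higher and 0.725% called. *Foxf2*, a forkhead factor of gut mesenchyme, fell (−3.67, limma adjusted p = 0.0383). *Foxf1*, its HH-dependent relative, measured 0.848 TPM in Shh1, 9.57 in Shh2, 72.3 in WT4 and 64.6 in WT6 (−3.97, limma adjusted p = 0.0976). The list summed to 35.8 TPM in Shh1, 66.4 in Shh2, 189 in WT4 and 156 in WT6. These sums include the 1 higher marker, *Barx1*, named after its values were seen. *Barx1* measured 18.9 TPM in Shh1, 20.5 in Shh2, 8.23 in WT4 and 5.15 in WT6. Of 8 neural crest markers 7 were tested and all 7 were higher (median 0.60), and *Twist1* rose (1.57, limma adjusted p = 0.0323). They summed to 269 TPM in Shh1, 227 in Shh2, 119 in WT4 and 96.7 in WT6. Of 8 immediate early genes 7 were tested and all 7 were higher (median 0.49), none called by limma. An unadjusted p under 0.05 was reached by 5, all higher, against 17.5% of all tested genes as higher. The immediate early genes summed to 220.4 TPM in Shh1, 190.1 in Shh2, 158 in WT4 and 141 in WT6. The part of these in the smooth muscle gene differences was not tested.

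**Figure D3:**
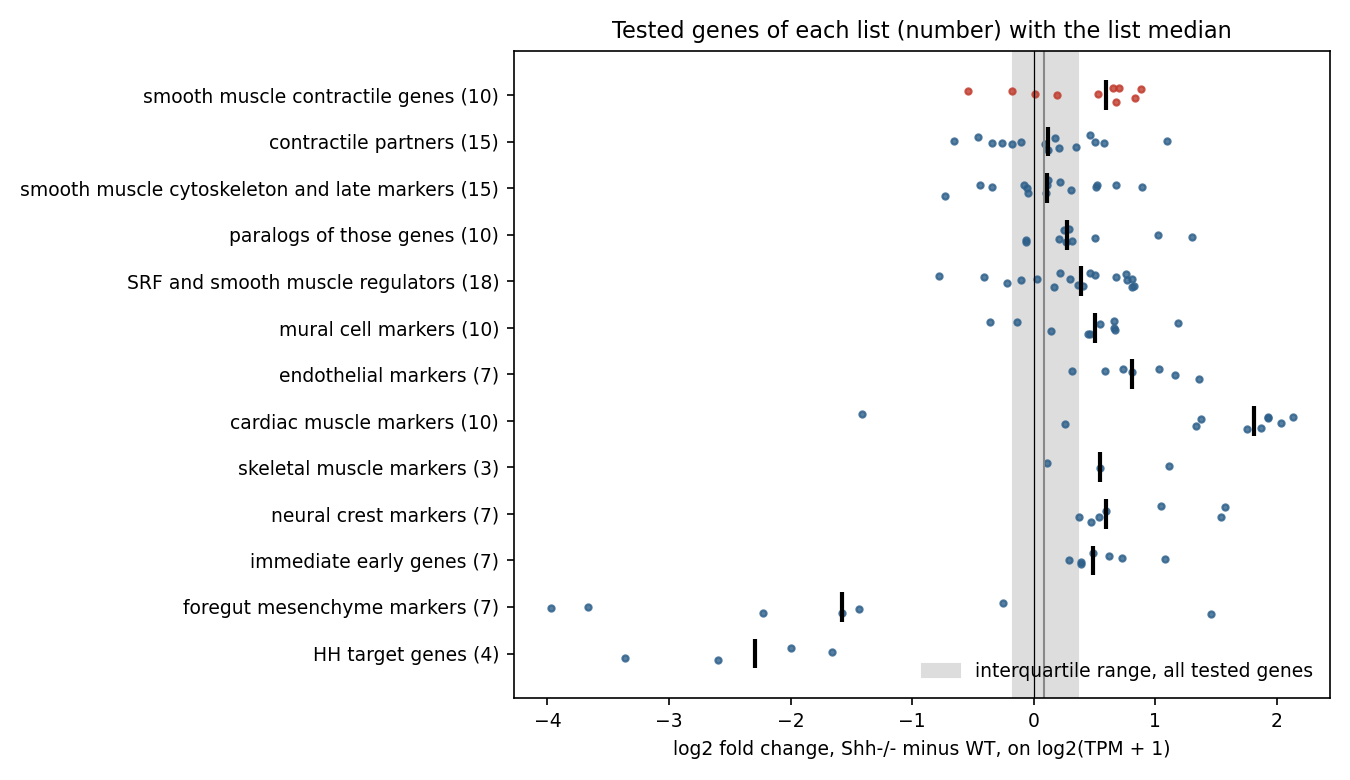
Log2 fold change (Shh-/- minus WT, on log2(TPM + 1)) of each tested gene by list, with list medians as black bars and the interquartile range of all tested genes in grey (−0.17 to 0.36). The smooth muscle contractile genes (red) have a median of 0.59, the cardiac markers 1.81 and the foregut mesenchyme markers −1.58.

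The profiles closest to *Tagln* and *Acta2* over the 4 pools were found by Euclidean distance of log2(TPM + 1), each gene less its own mean, among 10428 genes whose mean TPM was 10 or more. Those closest to *Tagln* were *Gm12091* (distance 0.039), *Stab1* (distance 0.042), *Hoxd3* (distance 0.052). Those closest to *Acta2* were *Gng2* (distance 0.11), *Ppp2r2b* (distance 0.11), *Map1b* (distance 0.11). With 4 pools in 2 genotypes the distance mostly follows the size of the genotype difference.

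**Figure D4:**
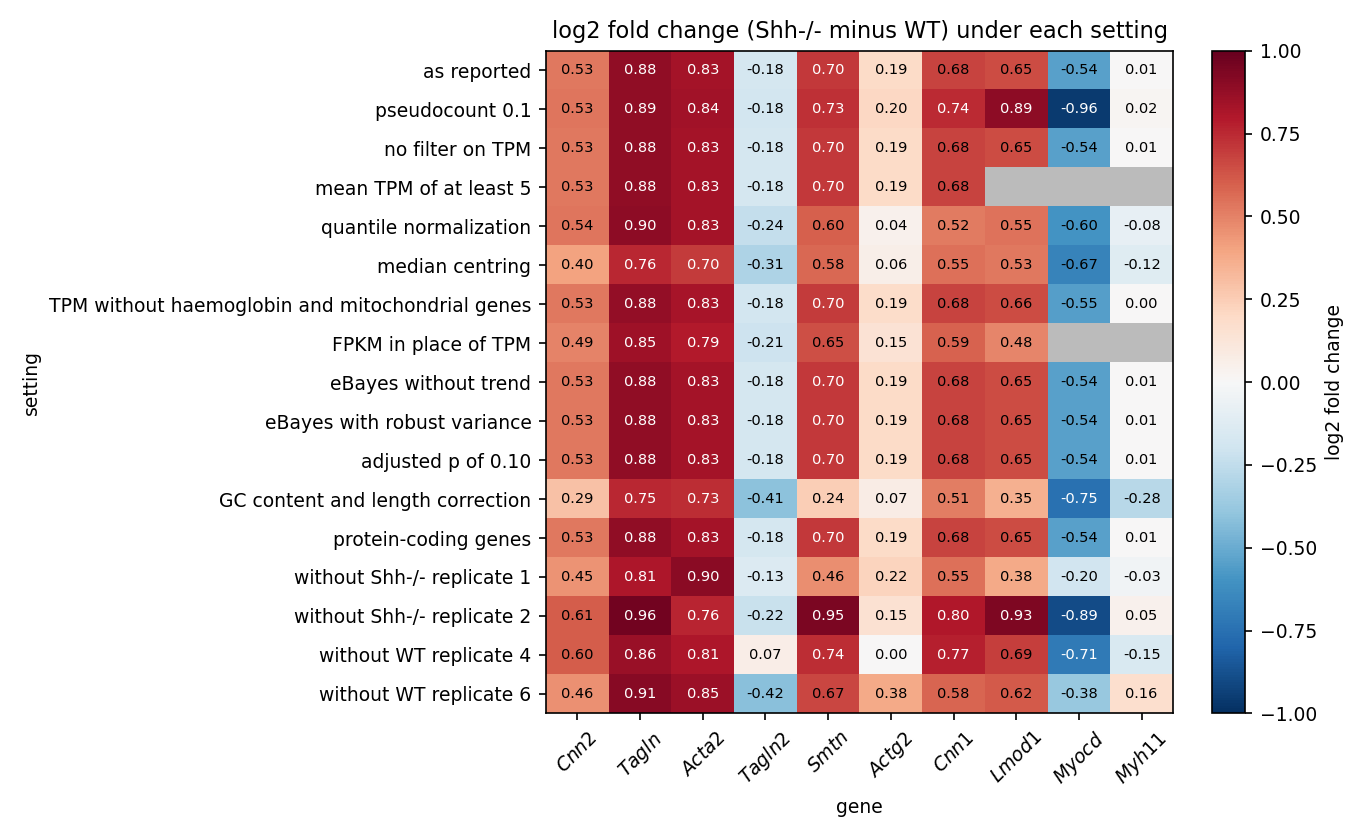
Log2 fold change of each of the 10 genes as reported and under each of 16 alternative settings, with grey cells for genes below a setting's filter. *Acta2* stays between 0.70 and 0.90 and *Tagln* between 0.75 and 0.96, while *Smtn* runs from 0.24 to 0.95.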

How the data were processed

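RNA was measured in 4 libraries of 3 pooled larynxes each. The authors made poly(A)-selected libraries with a directional kit and sequenced one end of each fragment. Alignment was to mm10 by HISAT2 (version 2.1.0), and genes were quantified by StringTie (version 1.3.6). The tables the authors deposited give per gene the mean read coverage, the FPKM value, which scales coverage by the aligned bases of a library, and the TPM value, which scales FPKM to a fixed sum per library. They hold no counts, so no count test or counting interval was used, and the spread between pools gives the precision. All 37 mitochondrially encoded genes are listed at 0, so a listed 0 may be a failed estimate. Aligned bases are the commonest ratio of coverage to FPKM.

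For each gene ID the TPM values were added up and taken as log2(TPM + 1). Shh-/- was compared with WT in R (version 4.3.3) by limma (version 3.58.1) with lmFit and trended eBayes, two-sided and without covariates, over the 16972 genes whose mean TPM reached 1. P-values were adjusted over all of them by the Benjamini-Hochberg method. The scripts were tested on simulated data. No source used here says that pools came from separate litters, so p-values rest on the spread between these pools, which may be technical. The spread of each gene was moderated by eBayes toward that of genes of similar level (4.94 residual plus prior degrees of freedom).

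The 10 genes and all lists were chosen by name with earlier results of these data known. Named are the 10 genes, their paralogs, *Shh* and *Ptch1*, the 3 profiles closest to *Tagln* and *Acta2* and, of each other list, called genes and up to 4 with the largest differences. A gene that this rule names is not reported here. Of 2 gene IDs for *Myh14*, the protein-coding one was used, and *Mymk* was not used here. Gene types, GC content and lengths come from GENCODE M21, which matched 46488 of 46983 gene IDs without version suffix. The GC and length correction took from each library a natural spline fit (5 degrees of freedom per property) of the deviations from gene means, for 16887 genes. The other alternatives changed the pseudocount, filter, scaling, unit, variance model, threshold or gene set, or left out 1 pool.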

Additional observations from a re-analysis of the deposited data

How the results depend on the processing

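The test called 123 genes (95 higher and 28 lower), 1 of them (*Tagln*) among the 10 smooth muscle genes, whose median log2 fold change was 0.59. A pseudocount of 0.1 gave 69 genes and 0 of the 10, and no filter on TPM gave 0 and 0 by limma, with 5011 genes and 5 of the 10 at an unadjusted p under 0.05. An adjusted p of 0.10 gave 858 genes and 3 of the 10 (*Acta2*, *Tagln* and *Cnn2*), and protein-coding genes alone 189 and 2 (*Acta2* and *Tagln*). A higher filter (mean TPM of 5), quantile normalization, median centring, eBayes without trend and the GC and length correction each gave 0 of the 10 by limma. At an unadjusted p under 0.05 the correction left 4 higher and 1 lower (*Tagln2*), eBayes without trend 6 higher and the other 3 settings 5 higher. Over all genes this p was reached by 3236 of 16887 with the correction and 3897 of 16972 without trend. It was reached by 3293 of 12537 with the higher filter, 4002 with quantile normalization and 4024 with median centring. The correction gave a median of 0.27. Median centring moved the median of all genes by −0.13. Leaving out 1 pool gave 0 to 16 genes and 0 of the 10, the lone pool being assumed to vary like the other group. With so few calls over all genes, the 0 says little about the 10. Their median with 1 pool left out was 0.41 (without Shh1) to 0.68. *Myh11* turned under quantile normalization (−0.084), median centring (−0.12) and the GC and length correction (−0.28). With 1 pool left out it ranged from −0.15 to 0.16, turning without Shh1 or WT4, and *Tagln2* from −0.42 to 0.066, turning without WT4. The cause of these changes was not tested. The other 8 genes kept their direction in each setting that tested them. *Myh11* and *Myocd* were below the filter with FPKM and with a mean TPM of 5, and *Lmod1* with the latter. The value of *Myocd* rests on low coverage, lowest in Shh1. No paired analysis was possible because the groups share no replicate number.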
